A study of Mus musculus with 2 samples.

Results

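The 40 genes described here act in G2 and mitosis: they encode the kinases that start mitosis, the spindle checkpoint, centromere and kinetochore proteins, spindle motors, the machinery of mitotic exit and proteins that compact and untangle chromosomes. They are a list of names, and the rule that chose them uses no measured value. The list was drawn up with earlier results of these data known. All 40 are among the 21041 genes of the deposited matrix, 39 under the listed symbol and Sgol1 under its current symbol Sgo1. They were followed in single cells of distal colon adenomas from Apcmin;LSL-mTERT mice, 25 weeks old. Apcmin mice inherit a truncated Apc gene and form intestinal adenomas, and LSL-mTERT is a mouse telomerase allele behind a stop cassette that Cre recombinase removes. Both groups of the study, G0+T and G4+T, carry these alleles, and each was profiled as 1 library with the 10x Genomics droplet method. The Cre driver, the meaning of G0 and G4 and the number of mice pooled are not stated in the labels.

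The authors gave every cell a class, and the class was the library: all 6189 cells with barcode suffix 1 were CIN_high (high chromosomal instability) and all 7908 with suffix 2 were CIN_low. The same numbers stand in the sample titles, but every cell name begins with G0, so the labels conflict, and which class is G0+T and which G4+T was not decided. A class without a second library has no replicates, and nothing was tested. Intervals are exact, at 95%, and cover counting error only, since mouse, tissue piece and preparation cannot be told apart from the class. Those of levels and ratios come from pooled UMIs and also leave out the spread between cells. The libraries held 51868113 and 74733715 UMIs (unique molecular identifiers, 1 per captured transcript), and 11 barcodes occurred in both. Scrublet called 2.29% and 3.15% of cells doublets. Throughout, pairs of values give the CIN_high library first. A level is the summed UMIs of a gene per 10000 UMIs of the same cells, and a ratio is CIN_high over CIN_low.

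Mitosis begins when cyclin B and its kinase Cdk1 become active together with the Polo and Aurora kinases. The spindle checkpoint then holds back the anaphase-promoting complex until every kinetochore is attached, after which Cdc20 and Ube2c bring about the destruction of securin and cyclin B, and separase cuts cohesin. Most of these genes are transcribed only late in the cycle, and in the intestine their RNA is known from the dividing cells of the lower crypt and from adenoma cells.

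Many promoters of late cell cycle genes are known to carry a cell cycle genes homology region (CHR), searched here as TTTGAA, and the NF-Y box CCAAT. In the RefSeq promoter table (build GRCm38.p6, the same coordinates as mm10) 34 of the 40 genes had an entry, and on either strand TTTGAA stood in 25 of the 34 (73.5%) between 250 bases before and 50 after the start of transcription. Among all 27025 genes of the table the share was 20.2%. CCAAT stood in 26 (76.5%, against 41.1% of all genes) and both in 22 (64.7%, against 7.97%). In 1 of the 36 windows of these genes did matches to the 2 strings share a base, and a match is a description of letters, not of binding. The promoters of 6 genes follow, each from 170 bases before to 30 after the start on the strand of the gene, with matches in capitals (a match on the opposite strand appears as its reverse complement). Cdk1, Cdc20 and Kif11 hold both strings and had high levels in Proliferating cells against other epithelium, Bub3 holds both and differed little, Nusap1 holds neither and had the largest difference, and Pttg1 holds neither in the window of the start listed and was not higher in Proliferating cells.
Cdk1, chr10:69352883-69353082, minus strand: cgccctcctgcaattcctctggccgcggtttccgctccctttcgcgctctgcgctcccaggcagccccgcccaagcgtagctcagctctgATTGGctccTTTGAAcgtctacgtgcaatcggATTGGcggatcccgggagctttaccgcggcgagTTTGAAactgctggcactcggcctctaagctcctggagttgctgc
Cdc20, chr4:118437314-118437513, minus strand: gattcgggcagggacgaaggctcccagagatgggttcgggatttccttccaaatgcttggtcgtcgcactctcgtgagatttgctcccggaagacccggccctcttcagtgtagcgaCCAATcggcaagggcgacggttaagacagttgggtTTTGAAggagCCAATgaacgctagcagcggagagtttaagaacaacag
Kif11, chr19:37376212-37376411, plus strand: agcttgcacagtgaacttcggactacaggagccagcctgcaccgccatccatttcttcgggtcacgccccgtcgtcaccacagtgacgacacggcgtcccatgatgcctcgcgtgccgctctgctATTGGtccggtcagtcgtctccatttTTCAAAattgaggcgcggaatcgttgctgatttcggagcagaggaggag
Bub3, chr7:131560200-131560399, plus strand: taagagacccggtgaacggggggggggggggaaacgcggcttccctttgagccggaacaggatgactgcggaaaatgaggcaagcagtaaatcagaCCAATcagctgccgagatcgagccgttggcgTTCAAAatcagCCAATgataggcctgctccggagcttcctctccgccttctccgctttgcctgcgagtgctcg
Nusap1, chr2:119618128-119618327, plus strand: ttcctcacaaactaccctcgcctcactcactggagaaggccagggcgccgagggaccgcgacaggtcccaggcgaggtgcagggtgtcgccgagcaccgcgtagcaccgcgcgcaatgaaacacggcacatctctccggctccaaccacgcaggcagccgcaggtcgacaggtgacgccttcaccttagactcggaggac
Pttg1, chr11:43425952-43426151, minus strand: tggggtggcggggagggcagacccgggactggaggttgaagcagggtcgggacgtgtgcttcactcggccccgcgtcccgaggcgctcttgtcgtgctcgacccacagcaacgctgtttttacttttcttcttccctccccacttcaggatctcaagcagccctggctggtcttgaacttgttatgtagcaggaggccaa
The table's start of Pttg1 lies 270 bases inside the annotated 5′ end of the gene (GENCODE vM21) and that of Bub3 148, so their windows describe these starts and not the outermost ones. The shares above also include Kif4 (328 bases inside), Cdca8 (2394) and Kif2c (3867). They include Mad2l1 as well, whose listed start matched no transcript. In Cdc20 the TTTGAA begins 18 bases before the start, and in Kif11 its reverse complement begins 19 bases before it. Bub3 has the reverse complement 43 bases before the start in the window shown.

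In both libraries the 40 genes were concentrated in the cells the authors annotated as Proliferating, an epithelial subtype of 111 and 199 cells. Summed over the 40 genes, their level there was 55.3 UMIs per 10000 (54.5 to 56.2) and 65.1 (64.5 to 65.8), against 3.44 and 3.55 in all other epithelial cells. The subtype was annotated from the same expression data, so this contrast describes the label and is not a finding. Of the markers fixed for the label, Pcna, the replication clamp, was at 2.43 and 2.95 UMIs per 10000 there and at 0.633 and 0.776 in other epithelium. Stmn1, which binds tubulin, was at 6.45 and 6.80 against 1.88 and 2.39. The other markers of the label are not given here, and as the label rests on the same data these values are no independent check. Epithelial markers summed to 80.1 and 85.5 in Proliferating cells. Among the other epithelial subtypes the summed level was 2.91 and 3.41 in Cancer_cell_1, 3.40 and 3.72 in Stem_cell_1 and 2.93 and 4.47 in enterocytes. It was lowest of the subtypes with at least 30 cells in each library in p57+ cancer cells, at 1.94 and 1.95. These cells are named for p57, the cell cycle inhibitor encoded by Cdkn1c, which was at 5.35 and 4.97 UMIs per 10000 there and at 0.333 and 0.302 in Proliferating cells. Complement+ stem cells stood at 4.98 and 6.21, and 76.9% and 75.3% of them were called doublets. The 25 Igfbp+ cells, all CIN_high, stood at 10.8, with 64.0% of the UMIs in 3 cells, and 13 of the 25 were called doublets.

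Outside the epithelium, T and NK cells had the highest summed level that did not rest on 1 cell, 7.63 and 8.29 UMIs per 10000, followed by myeloid cells at 5.68 and 4.84. The 18 and 2 cells the authors left without a type, and the 8 and 36 S100a8/s100a9+ epithelial cells at 2.93 and 2.25, were too few to compare. Fibroblasts had 1.88 (966 cells) and 2.36 (21 cells). Endothelial cells stood at 3.06 and 4.22 and pericytes at 3.25 and 4.11. In the CIN_low library 1 endothelial cell held 36.0% of these UMIs and 1 pericyte 39.2%, and without them the levels were 2.77 and 2.57. B cells stood at 11.0 and 2.91, but 1 of the 40 CIN_high B cells held 78.6% of the UMIs, and without it the level was 2.72. The heat map of levels by population shows the Proliferating columns bright for nearly every gene, and Bub3 among the rows that stay visible elsewhere.

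**Figure D1:**
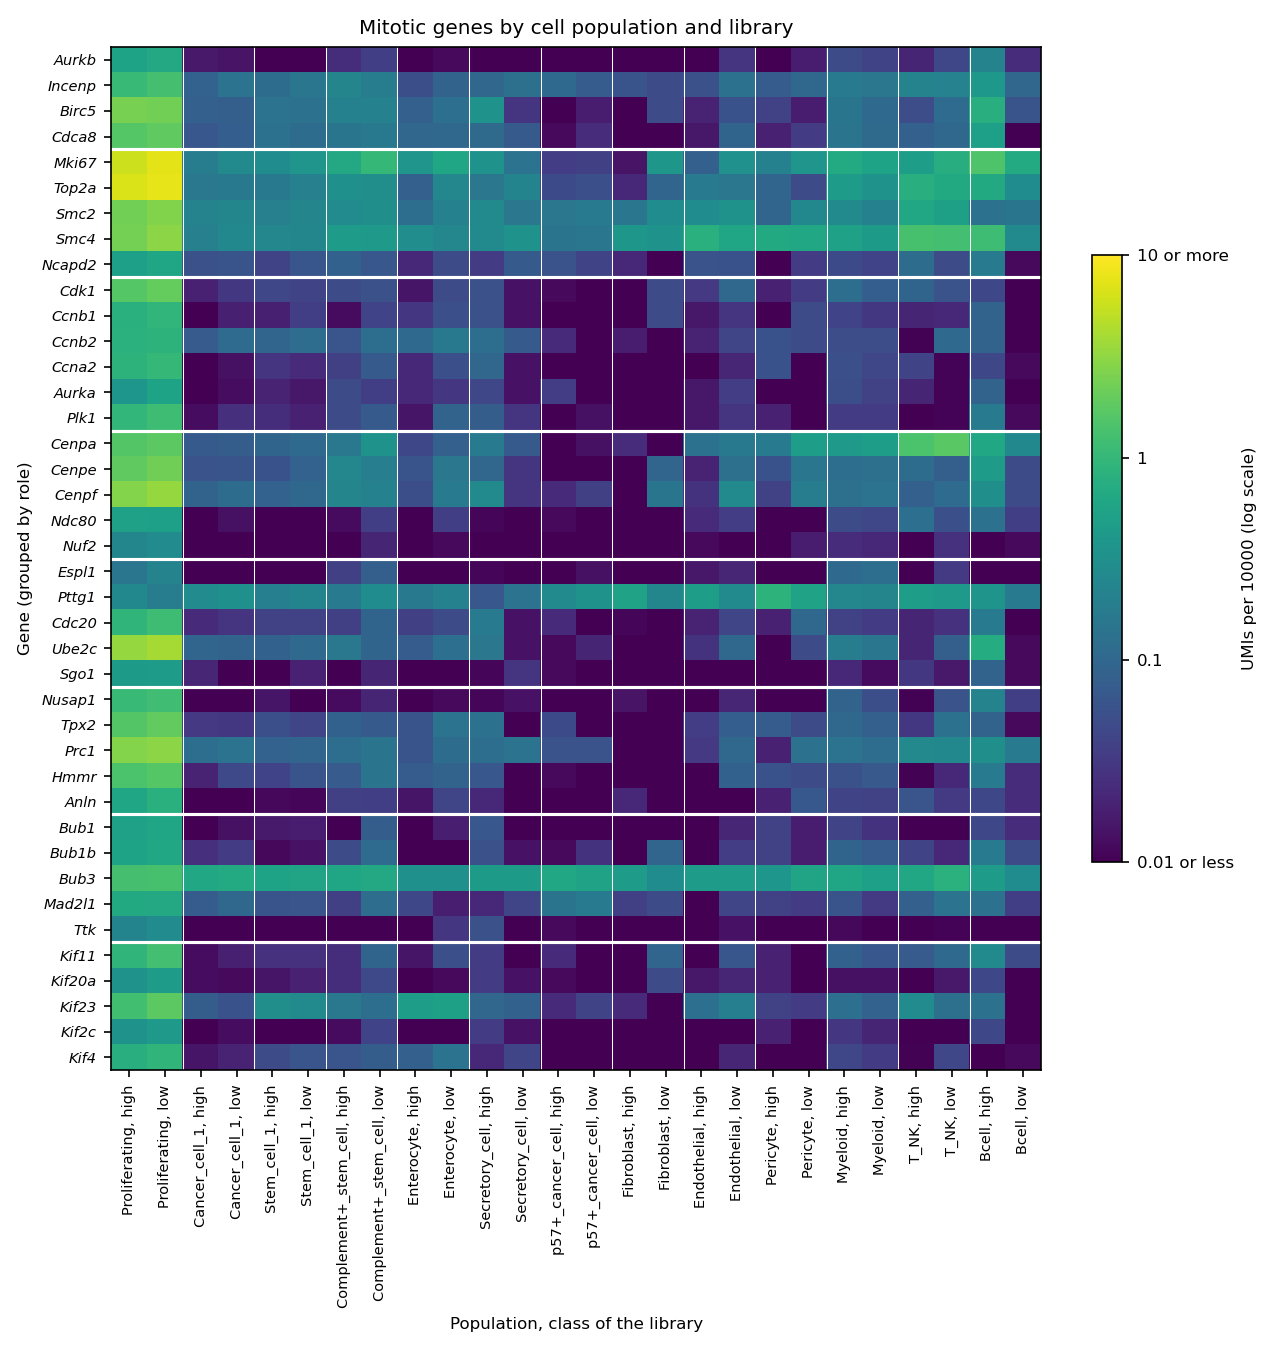
Level of each of the 40 genes (rows, grouped by role) in each population of each library (columns), as UMIs per 10000 UMIs of that population on a log colour scale from 0.01 to 10. In Proliferating cells Mki67 reaches 5.98 and 7.57 and Top2a 6.69 and 7.72 in the CIN_high and CIN_low libraries, while Pttg1 is at 0.255 and 0.180 there and 0.870 and 0.537 in pericytes.

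The comparison of the classes asked whether adenoma epithelium of the CIN_high library held more or less of the mitotic programme. All 40 genes had a ratio under 1 over all epithelial cells. Of the 40, all measured (detected in 2% or more of the cells), 17 were lower in CIN_high by at least 1.5-fold and 0 were higher. Among all 12987 measured genes 6.21% were lower and 3.45% higher by that line. The median log2 ratio of the 40 was -0.57, beside -0.08 over all measured genes, and 39 of the 40 intervals lay wholly under 1, as did 33.4% of all intervals. The line ran through close values, with Cdc20 at a ratio of 0.661 past it and Incenp at 0.669 short of it. With each cell thinned to 3000 UMIs 10 genes passed, and 5 relative to the median of all genes. With the subtype mix of the libraries made equal 0 passed (median log2 -0.25, 38 of 40 under 0). The shares of all genes under these alternatives are not given here, so these counts have no background. The summed level of the 40 was 10.5 UMIs per 10000 (10.4 to 10.6) in the CIN_high and 14.9 (14.8 to 15.1) in the CIN_low epithelium, a ratio of 0.702 (0.691 to 0.714). Epithelial cells had median depths of 14032.5 and 15364 UMIs. The 5 neutrophil markers, none at 0, summed to 4.51 and 15.6 UMIs per 10000 in these cells and the 5 fibroblast markers (1 at 0 in CIN_low) to 0.600 and 0.0177, and their part in the result was not tested.

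The 2 libraries differed in the share of Proliferating cells, 8.43% of CIN_high epithelial cells (6.99 to 10.1) and 11.5% of CIN_low ones (10.1 to 13.1). These cells held 13.6% and 18.5% of all epithelial UMIs, and 71.7% and 80.7% of the epithelial UMIs of the 40 genes. Of the summed epithelial level, Proliferating cells supplied 7.53 and 12.1 UMIs per 10000, and all other epithelial cells 2.97 and 2.89. The difference between these summed contributions thus lay in the part from Proliferating cells. The other epithelium pools unlike subtype mixes, and the 25 Igfbp+ cells, all CIN_high, held 667 of its 6432 CIN_high UMIs of the 40 genes. Summed ratios within subtypes were under 1 in Cancer_cell_1 (0.853), Stem_cell_1 (0.912), Complement+ stem cells (0.803) and enterocytes (0.654). The ratio was 0.994 in p57+ cancer cells and 1.73 in secretory cells, where 1 CIN_high cell held 46.2% of the UMIs. The contribution of Proliferating cells had a ratio of 0.624, the product of 0.735 for their share of epithelial UMIs and 0.849 for the level within them.

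Within Proliferating cells all 40 genes were measured and 0 passed the 1.5-fold line in either direction, where 10% of 13053 genes were lower and 8.34% higher. In counts simulated for these cells, 11.8% of genes with a true ratio of 1 passed the line, and 54% of those with a true ratio of 1.5. The shares of all genes can thus hold much counting error, and 0 of 40 is not read against them. The ratios still leaned one way: 36 of 40 lay under 1 with a median log2 ratio of -0.25 (all genes -0.05). Of the intervals 23 lay wholly under 1 and 1, that of Pttg1, wholly above it, against 10.9% and 6.65% of all genes. Median depth was 24594 and 24592 UMIs per cell. Taking the mean over cells in place of summed UMIs put 3 genes past the line as lower. Thinning to 3000 UMIs put 6 past it as lower and 1 as higher. The shares of all genes under these alternatives are not given here, so these counts have no background and are not read as a result. In the other epithelial cells 30 of the 40 passed the 2% filter, which leaves out the rarest genes, and 0 of them passed the 1.5-fold line, where 6.68% of all genes were lower and 3.65% higher. Their median log2 ratio was -0.07, that of all 12859 genes -0.08. The intervals of Birc5, Kif23 and Tpx2 lay above 1 there, and 5 lay below, where 13.3% and 31.8% of all genes did.

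**Figure D2:**
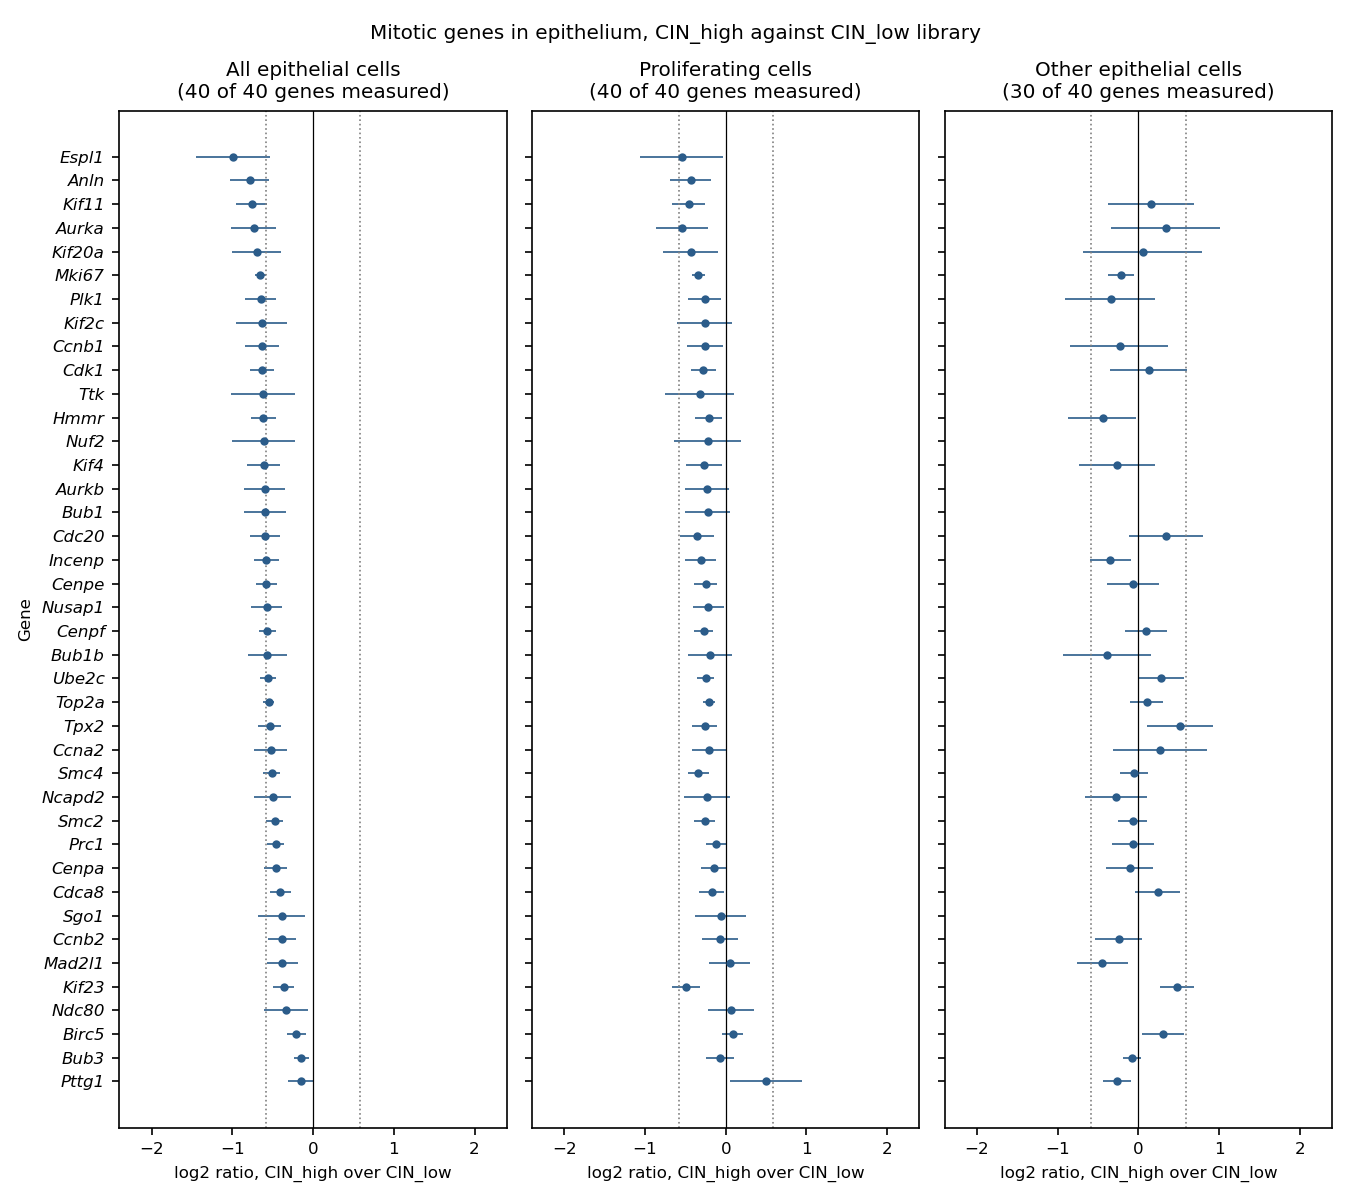
The log2 ratio of CIN_high over CIN_low for each gene (points, with exact 95% counting intervals) in all epithelial cells, in Proliferating cells and in the other epithelial cells. Dotted lines mark 1.5-fold. In the left panel all 40 points lie under 0, in the middle panel 36 of 40, and in the right panel the 30 measured genes lie on both sides.

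Of the 6 kinases and cyclins that start mitosis, 4 were lower by 1.5-fold over all epithelium (median log2 -0.63). Cdk1, the kinase that drives cells into mitosis, was at 0.251 and 0.389 UMIs per 10000 (ratio 0.645, 0.582 to 0.714). Its partner cyclins B1 and B2 were at 0.127 and 0.197 (0.644, 0.557 to 0.743) for Ccnb1 and 0.188 and 0.245 (0.766, 0.678 to 0.865) for Ccnb2, and their intervals overlapped. Ccna2, the cyclin of S phase and G2, was at 0.141 and 0.204 (0.694, 0.604 to 0.796). Aurka, which matures centrosomes and the spindle poles, was at 0.0679 and 0.113 UMIs per 10000 (ratio 0.600, 0.492 to 0.728), among the lowest ratios of the 40. Plk1, the Polo kinase, was at 0.152 and 0.239 (0.636, 0.557 to 0.725). Within Proliferating cells the 6 had log2 ratios from -0.54 (Aurka) to -0.07 (Ccnb2), and in the other epithelium from -0.34 (Plk1) to 0.34 (Aurka).

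The 5 spindle checkpoint genes did not move as 1 block. Ttk (Mps1), the kinase at the top of the checkpoint, was at 0.0360 and 0.0554 UMIs per 10000 (ratio 0.651, 0.492 to 0.854) and Bub1, which it recruits, at 0.0832 and 0.126 (0.660, 0.551 to 0.789); these 2 passed the 1.5-fold line. Bub1b (BubR1) was at 0.0966 and 0.143 (0.675, 0.570 to 0.796) and Mad2l1 (Mad2), the inhibitor of Cdc20, at 0.151 and 0.196 (0.769, 0.670 to 0.880). Bub3, which also serves outside mitosis as an RNA splicing partner, was at 0.668 and 0.739 (0.903, 0.845 to 0.964), with a log2 ratio of -0.15. Within Proliferating cells their log2 ratios ran from -0.32 (Ttk) to 0.05 (Mad2l1), and all 5 intervals held 1. In the other epithelium Mad2l1 was at 0.0690 and 0.0939 (0.735, 0.589 to 0.913), so its lower epithelial level came with lower levels outside the Proliferating cells.

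The chromosomal passenger complex corrects wrong attachments at centromeres. Its kinase Aurkb was at 0.0859 and 0.130 UMIs per 10000 (ratio 0.659, 0.552 to 0.785) and its scaffold Incenp at 0.236 and 0.352 (0.669, 0.601 to 0.743). Cdca8 (borealin) was at 0.312 and 0.413 (0.756, 0.688 to 0.829), and Birc5 (survivin) at 0.439 and 0.508 (0.864, 0.797 to 0.937), among the smallest differences of the 40. Of the 4, 1 (Aurkb) passed the line. Birc5 was at 2.45 and 2.31 (1.06, 0.969 to 1.16) within Proliferating cells and at 0.122 and 0.0985 (1.24, 1.03 to 1.49) in the other epithelium, so the 4 subunits had ratios on both sides of 1 once the populations were separated.

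Among centromere and kinetochore genes, Cenpa, the histone variant that marks centromeres, was at 0.289 and 0.399 UMIs per 10000 (ratio 0.725, 0.658 to 0.798). Cenpe, a kinetochore motor, was at 0.316 and 0.472 (0.669, 0.610 to 0.732) and Cenpf, a large kinetochore protein of G2 and M phase, at 0.480 and 0.712 (0.674, 0.626 to 0.726). Ndc80 and Nuf2 form 1 microtubule-binding complex: Nuf2 was at 0.0379 and 0.0579 (0.655, 0.499 to 0.854) and passed the line, and Ndc80 was at 0.0813 and 0.102 (0.795, 0.658 to 0.957) and did not. Their intervals overlapped. Within Proliferating cells the 5 log2 ratios ran from -0.27 (Cenpf) to 0.07 (Ndc80).

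The largest and the smallest epithelial differences of the 40 genes both lay among the 5 genes of mitotic exit and sister chromatid cohesion. Espl1 encodes separase, the protease that cuts cohesin at anaphase (chromosome 15, 102296266 to 102324357, mm10). It was at 0.0254 and 0.0504 UMIs per 10000 (ratio 0.504, 0.364 to 0.689), a log2 ratio of -0.99 from 55 and 162 UMIs. Pttg1 encodes securin, the inhibitor that separase must lose (chromosome 11, 43420250 to 43426251). It was at 0.238 and 0.264 (0.904, 0.809 to 1.01), the only one of the 40 whose interval held 1. Separase and securin thus stood at the ends of the order of ratios, but counting error does not set them apart from their neighbours. Bub3 lay beside Pttg1 at 0.903, and the interval of Espl1 held the ratios of Anln (0.580), Kif11 (0.590) and Aurka (0.600), among others. Cdc20, the activator of the anaphase-promoting complex, was at 0.161 and 0.244 (0.661, 0.581 to 0.751) and passed the line. Ube2c, which starts its ubiquitin chains, was at 0.540 and 0.798 (0.677, 0.631 to 0.726). Sgo1 (shugoshin), the protector of centromeric cohesin, was at 0.0698 and 0.0914 (0.763, 0.623 to 0.931). Within Proliferating cells Espl1 was at 0.149 and 0.217 (0.689, 0.478 to 0.977) and Pttg1 at 0.255 and 0.180 (1.42, 1.04 to 1.92), on opposite sides of 1. In the other epithelium Pttg1 was at 0.236 and 0.283 (0.834, 0.739 to 0.939).

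Of the 5 spindle motors, 4 were lower by 1.5-fold. Kif11 (Eg5), which pushes spindle poles apart, was at 0.151 and 0.256 UMIs per 10000 (ratio 0.590, 0.518 to 0.672). Kif20a, a motor of cytokinesis, was at 0.0591 and 0.0958 (0.617, 0.498 to 0.761). Kif2c, which removes tubulin at wrong attachments, was at 0.0554 and 0.0862 (0.643, 0.515 to 0.800) and Kif4, a chromosome arm motor, at 0.133 and 0.202 (0.655, 0.568 to 0.754). Kif23, the motor of the centralspindlin complex, was at 0.339 and 0.436 (0.776, 0.709 to 0.849) and did not pass. Kif23 went in opposite directions in the 2 compartments, at 1.24 and 1.74 (0.713, 0.631 to 0.804) in Proliferating cells and 0.197 and 0.141 (1.40, 1.21 to 1.62) in the other epithelium. Within Proliferating cells the motors had the lowest median log2 ratio of the 8 roles, -0.43, with a range from -0.49 to -0.26.

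Among the 5 genes of spindle assembly and cytokinesis, Anln (anillin), the scaffold of the contractile ring, was at 0.0933 and 0.161 UMIs per 10000 (ratio 0.580, 0.491 to 0.684) and Hmmr, a spindle pole protein, at 0.225 and 0.345 (0.653, 0.586 to 0.727). Both passed the line. Nusap1, which bundles spindle microtubules, was at 0.155 and 0.231 (0.671, 0.588 to 0.764), Tpx2, the activator of Aurora A, at 0.266 and 0.386 (0.689, 0.623 to 0.761) and Prc1, the crosslinker of the central spindle, at 0.474 and 0.654 (0.725, 0.672 to 0.781). Within Proliferating cells Anln was at 0.601 and 0.810 (0.742, 0.621 to 0.883) and Prc1 at 2.78 and 3.02 (0.920, 0.846 to 1.00). Tpx2 was at 0.0562 and 0.0393 (1.43, 1.08 to 1.89) in the other epithelium.

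The 5 genes of chromosome structure had the narrowest range of epithelial log2 ratios, -0.65 to -0.47. Mki67, which coats mitotic chromosomes and is the common marker of cycling cells, was at 1.06 and 1.67 UMIs per 10000 (ratio 0.635, 0.605 to 0.667) and passed the line. Top2a, which untangles sister DNA, was at 1.07 and 1.57 (0.682, 0.649 to 0.717). The condensin subunits were at 0.498 and 0.692 (0.720, 0.669 to 0.775) for Smc2, 0.533 and 0.761 (0.701, 0.653 to 0.752) for Smc4 and 0.110 and 0.156 (0.706, 0.602 to 0.825) for Ncapd2. Within Proliferating cells Mki67 was at 5.98 and 7.57 (0.791, 0.748 to 0.836) and Top2a at 6.69 and 7.72 (0.866, 0.821 to 0.913), so both were lower there by less than the line. Mki67 and Top2a together made up 20.3% and 21.7% of the epithelial UMIs of the 40 genes, and a summed level leans on them to that extent. The protein-coding genes of the annotation (GENCODE vM21, mm10) overlap 9 of the 40 on the opposite strand and 0 on the same strand. Those are Bub3, Ccna2, Cdc20, Cdca8, Kif20a, Kif4, Nusap1, Prc1 and Ube2c, and their counts are uncertain to that extent, since whether the counting used strand is not stated in the labels.

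The other subtypes were compared one by one, with far fewer UMIs of these genes. Cancer_cell_1, the largest, had 0 higher and 5 lower of 27 measured (4.59% and 6.47% of all genes; median log2 -0.24, all genes -0.07). The 5 were Hmmr at 0.0199 and 0.0456 (0.436, 0.233 to 0.774), Incenp at 0.0871 and 0.140 (0.621, 0.463 to 0.826), Ccnb2 at 0.0722 and 0.111 (0.652, 0.470 to 0.895), Plk1 at 0.0124 and 0.0262 (0.475, 0.208 to 0.994) and Cdk1 at 0.0187 and 0.0304 (0.614, 0.312 to 1.15), of which the interval of Cdk1 held 1. Stem_cell_1 had 0 higher and 4 lower of 33 measured (6.95% and 9.42% of all genes; median log2 -0.19, all genes -0.07), and the intervals of all 4 (Ccnb1, Cenpe, Sgo1 and Ncapd2) held 1. Enterocytes, the absorptive cells, had 1 higher and 20 lower of 29 measured (11.8% and 16.5% of all genes; median log2 -0.78, all genes -0.08), and the intervals of 5 of the 29 lay under 1 (9.24% of all genes), those of Mki67 at 0.367 and 0.593 (0.619, 0.430 to 0.880), Top2a at 0.0823 and 0.245 (0.335, 0.155 to 0.664), Plk1, Cenpe and Cenpf. Complement+ stem cells had 3 higher and 17 lower of 39 measured (15.1% and 16% of all genes; median log2 -0.32, all genes -0.05), and p57+ cancer cells 2 higher and 4 lower of 16 measured (11.8% and 15.3% of all genes; median log2 -0.11, all genes -0.03). Shares near those of all genes, as for p57+ cancer cells, are not a result about these genes. Secretory cells went the other way, with 18 higher and 4 lower of 28 measured (17.9% and 20% of all genes; median log2 1.01, all genes -0.04). In CIN_high 1 of the 54 secretory cells held 46.2% of the UMIs, and without the top cell of each library the median was -0.15 and the summed levels 2.37 and 2.12.

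In myeloid cells the genes leaned to the CIN_high library. There were 2 higher and 0 lower of 22 measured (3.13% and 3.03% of all genes; median log2 0.28, all genes 0.13), and 14 of 22 intervals lay above 1 and 1 under it, where 41.7% and 13.3% of all did. Cdk1 was at 0.120 and 0.0788 UMIs per 10000 (ratio 1.53, 1.28 to 1.82) and Mad2l1 at 0.0609 and 0.0324 (1.88, 1.45 to 2.45), the only genes past the line. Mki67 was at 0.681 and 0.549 (1.24, 1.16 to 1.33) and Top2a at 0.458 and 0.351 (1.30, 1.19 to 1.42). Cenpa was the exception with an interval under 1, at 0.404 and 0.477 (0.846, 0.776 to 0.921). The 5 neutrophil markers, none at 0, summed to 217 and 496 UMIs per 10000 of the myeloid UMIs, so the libraries differed in the makeup of this type, and its part in the result was not tested. T and NK cells had 4 higher and 4 lower of 20 measured (9.11% and 13.8% of all genes; median log2 0.02, all genes -0.03), endothelial cells 1 higher and 4 lower of 11 measured (9.45% and 14.3% of all genes; median log2 -0.25, all genes -0.05) and pericytes 6 higher and 10 lower of 22 measured (26.1% and 19.5% of all genes; median log2 -0.16, all genes 0.05). In endothelial cells Mki67 was at 0.0824 and 0.333 (0.247, 0.140 to 0.422) and Pttg1 at 0.471 and 0.262 (1.79, 1.23 to 2.67), in opposite directions. The endothelial median turned positive without the top cell of each library (0.06), without doublets (0.24), with the mean over cells (0.34) and in thinned cells (0.16), so no direction is read from it. B cells had 20 higher and 0 lower of 21 measured (44.9% and 11.4% of all genes; median log2 1.88, all genes 0.47), and without the top cell of each library the median was 0.37.

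Measured by location rather than by class, 33 of the 40 genes in CIN_high and 34 in CIN_low were at least 10-fold higher in Proliferating cells than in the other epithelium, as were 149 and 165 of all measured genes (1.16% and 1.26%). The median fold was 25.3 and 30.9. Nusap1 had the largest, 67.0-fold (45.7 to 102) in CIN_high and 126-fold (84.8 to 196) in CIN_low. Cdk1 stood at 45.1 and 59.6, Cdc20 at 21.7 and 35.3 and Kif11 at 31.4 and 48.1. These values describe what the annotated subtype is made of. Pttg1 and Bub3 departed most from this pattern. Pttg1 differed 1.08-fold (0.834 to 1.38) in CIN_high and 0.636-fold (0.514 to 0.780) in CIN_low. Its level was 0.870 and 0.537 UMIs per 10000 in pericytes, 0.530 and 0.241 in fibroblasts and 0.465 and 0.414 in T and NK cells, above or beside the 0.255 and 0.180 of Proliferating cells. Across Proliferating cells its rank correlation with the summed level of the other 39 genes was -0.01 and -0.12, where Cenpf had the highest, 0.78 and 0.80. The 111 and 199 cells behind these values share a library and differ in depth, so they are not replicates. Bub3 differed 2.27-fold (2.01 to 2.55) in CIN_high and 2.26-fold (2.07 to 2.46) in CIN_low, and its level in the other types ran from 0.378 to 0.631 in CIN_high and from 0.290 to 0.816 in CIN_low. After these, Kif23 was lowest in CIN_high (6.30-fold, against 12.3-fold in CIN_low) and Mad2l1 lowest in CIN_low (6.87-fold, against 9.69-fold in CIN_high).

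**Figure D3:**
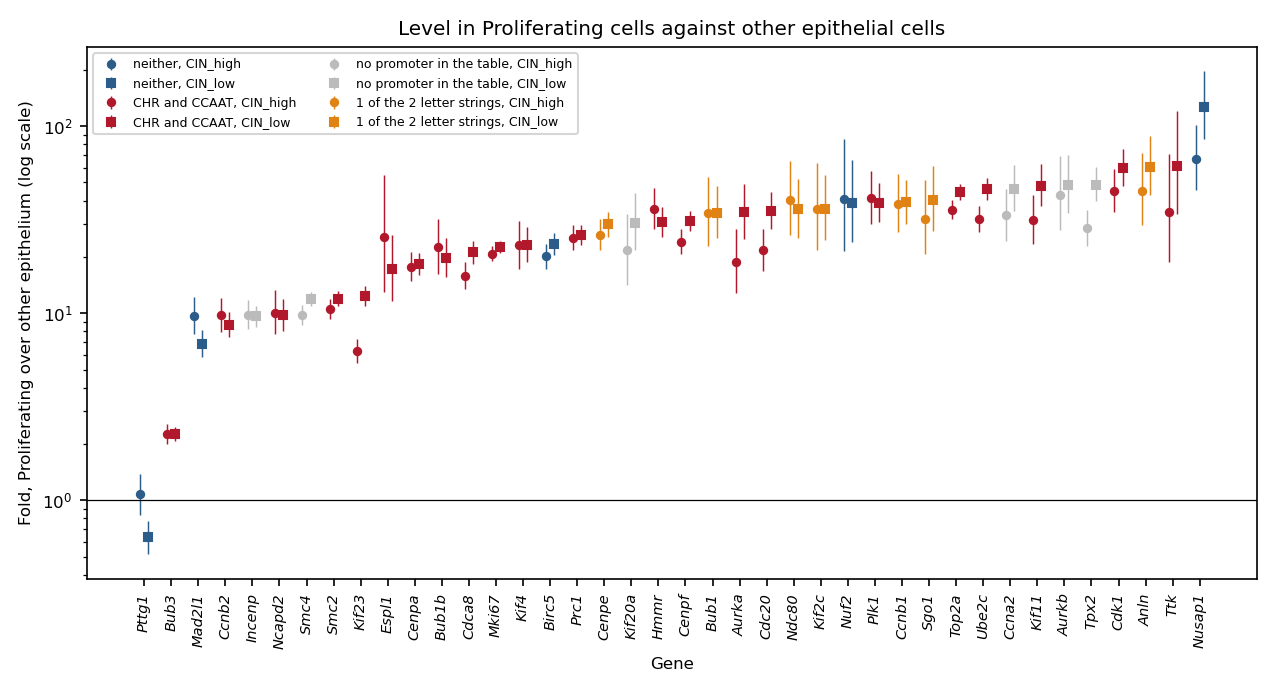
Fold of the level in Proliferating cells over that in the other epithelial cells, on a log axis, for each gene in the CIN_high (circles) and CIN_low (squares) libraries with exact 95% counting intervals, coloured by whether the promoter entry holds both strings, 1 of them or neither, with grey for genes that have no entry. Pttg1 at the left lies at 1.08 and 0.636 and Nusap1 at the right at 67.0 and 126, and neither holds either string in its window. The window of Pttg1 lies wholly inside the gene, because the listed start is 270 bases from the annotated 5′ end, so its colour does not describe the sequence before that end.

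A few genes were high in other single populations. Kif23 was at 0.464 and 0.509 UMIs per 10000 in enterocytes, its highest level in epithelium outside Proliferating cells, while Cdk1 there was at 0.0150 and 0.0479. With each cell thinned to 3000 UMIs, 13.0% and 13.3% of enterocytes and 0.552% of CIN_high fibroblasts had a Kif23 UMI, and 1.09% and 2.41% of enterocytes a Cdk1 UMI. The median depths before thinning were 11318 and 15249 UMIs in enterocytes and 6764 in the fibroblasts. Kif23 thus occurred in enterocytes without the kinase of mitosis at a like share. Cenpa was at 1.41 and 1.72 in T and NK cells, close to the 1.57 and 1.74 of Proliferating cells, and Smc4 at 1.32 and 1.27. Plk1 in T and NK cells had 0 of 966893 UMIs in CIN_high, which allows a level of up to 0.0310, and stood at 0.0107 in CIN_low from 2 UMIs. Espl1 was at 0.107 and 0.122 in myeloid cells, beside 0.149 and 0.217 in Proliferating cells, and 5.94% and 6.92% of myeloid cells had an Espl1 UMI. In the fibroblasts of CIN_high it was 0.518%, at a median depth of 6764 against 5721.5 UMIs in myeloid cells.

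Because free RNA can place a UMI of 1 gene in any cell, cells were also scored by how many of the 40 genes they held, after thinning to 3000 UMIs and leaving out shallower cells. A cell with at least 5 of the 40 genes is counted as mitotic-gene positive below. Of Proliferating cells 79.3% (88 of 111, 70.5 to 86.4) in CIN_high and 83.4% (166 of 199, 77.5 to 88.3) in CIN_low were positive. Among all epithelial cells the shares were 8.95% (113 of 1262, 7.44 to 10.7) and 11.8% (201 of 1697, 10.3 to 13.5), and among the other epithelial cells 2.17% (25 of 1151, 1.41 to 3.19) and 2.34% (35 of 1498, 1.63 to 3.23). In each of the 3 pairs the intervals of the libraries overlapped. Positive cells therefore occurred outside the annotated subtype as well: of 113 and 201 positive epithelial cells, 25 and 35 carried another subtype's name, among them 7 and 14 Cancer_cell_1 and 8 and 8 Stem_cell_1 cells. A further 2 and 7 were Complement+ stem cells and 4 and 0 Igfbp+ cells. In these 2 subtypes 52% or more of the cells were called doublets, and a doublet with a Proliferating cell would also score as positive. In p57+ cancer cells there were 0 of 77 and 0 of 206, which allows shares of up to 3.90% and 1.46% by a limit of 3 cells of the total (Clopper-Pearson upper bounds 4.68% and 1.77%). In CIN_high fibroblasts there were 0 of 906, which allows up to 0.331% by the same limit (Clopper-Pearson 0.406%). Myeloid cells were positive in 2.75% (63 of 2288, 2.12 to 3.51) and 1.94% (88 of 4537, 1.56 to 2.38), and T and NK cells in 4.35% (6 of 138, 1.61 to 9.22) and 3.25% (8 of 246, 1.41 to 6.31). Of all cells scored, positive or not, at least 10 of the 40 genes were held by 49.5% and 59.8% of Proliferating cells and 1.70% and 1.23% of myeloid cells. The shares were 0.725% and 2.03% in T and NK cells and 0.434% and 0.401% in the other epithelial cells. As the share of positive cells differed by population, these values do not compare positive cells with each other. The highest number in a cell was 25 in Proliferating cells of both libraries and 27 and 26 in myeloid cells, so a few myeloid cells held as many as the fullest Proliferating cells, while no other epithelial cell held over 14. At the line, 22 and 29 cells of the libraries held exactly 5 genes, and 51 and 79 held 4.

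**Figure D4:**
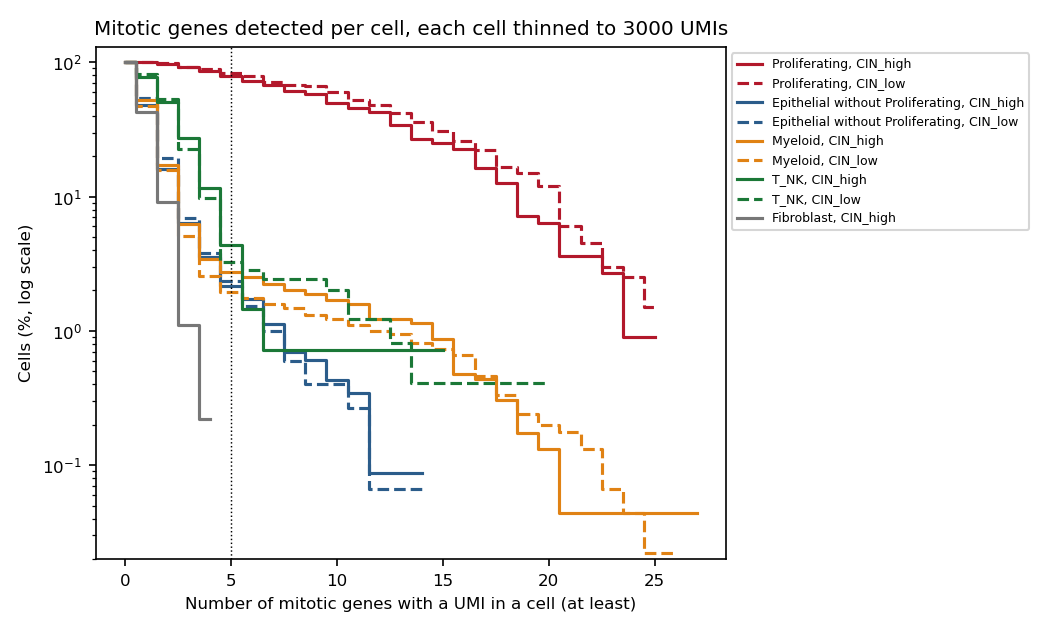
Share of cells (%, log axis) that hold at least a given number of the 40 genes after thinning each cell to 3000 UMIs, for 5 populations and both libraries (solid CIN_high, dashed CIN_low, fibroblasts CIN_high only). The dotted line marks 5 genes, where Proliferating cells stand at 79.3% and 83.4% and the fibroblast curve has ended.

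Proliferating cells were not uniform. The summed level of the 40 genes in single cells ran from 1.47 to 187 UMIs per 10000 in CIN_high (median 51.8) and from 1.36 to 219 in CIN_low (median 55.9). The 2 ranges overlapped almost wholly. Scored by 5 of the 40 mitotic and 5 of 45 DNA replication genes at 3000 UMIs, 51.4% and 58.3% of Proliferating cells held both sets, 27.9% and 25.1% the mitotic set alone, 17.1% and 15.1% the replication set alone and 3.60% and 1.51% neither. In the other epithelial cells the replication set alone was held by 3.74% and 4.81% and the mitotic set alone by 1.48% and 2.0%.

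A further 94 genes of the same processes that are not among the 40 were also compared, and the difference between the lists was not tested. Of 93 measured in epithelium 17 were lower and 1 higher by 1.5-fold (6.21% and 3.45% of all genes), with a median log2 ratio of -0.34 (all genes -0.08). Within Proliferating cells 4 of 94 were lower and 0 higher, shares below those of all genes (10% and 8.34%), with a median of -0.16 (all genes -0.05). Counting error alone takes some genes past the line in these cells, so the lower shares are not read as a result. The lowest ratios over all epithelium were those of Troap, a spindle protein, at 0.0143 and 0.0314 UMIs per 10000 (ratio 0.456, 0.295 to 0.688), Depdc1a at 0.0439 and 0.0914 UMIs per 10000 (ratio 0.480, 0.377 to 0.607) and Pbk, a mitotic kinase, at 0.0947 and 0.179 UMIs per 10000 (ratio 0.529, 0.449 to 0.621). The 1 higher gene was Psrc1, a microtubule protein of the spindle known to be induced by p53, at 0.416 and 0.208 UMIs per 10000 (ratio 2.0, 1.81 to 2.21). The next were Gtse1, a microtubule protein that restrains p53 in G2, at 0.0762 and 0.0535 UMIs per 10000 (ratio 1.42, 1.14 to 1.77), and Anapc11, the catalytic subunit of the anaphase-promoting complex, at 0.588 and 0.482 UMIs per 10000 (ratio 1.22, 1.13 to 1.32). Of the 45 DNA replication genes, all measured in epithelium, 8 were lower and 0 higher (median log2 -0.43), beside the same shares and median of all genes as above. Ung, which removes uracil from DNA, was at 0.0467 and 0.0893 UMIs per 10000 (ratio 0.523, 0.412 to 0.658), Hells, a chromatin remodeller, at 0.310 and 0.542 UMIs per 10000 (ratio 0.573, 0.523 to 0.627) and Dtl, the adaptor that marks Cdt1 for destruction, at 0.0799 and 0.139 UMIs per 10000 (ratio 0.574, 0.478 to 0.685). Outside Proliferating cells the replication genes had a median of -0.30 (all genes -0.08), with 5 of 44 lower (6.68% of all genes), where the 40 mitotic genes had -0.07 and 0 of 30. The difference between these medians was not tested.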

How the data were processed

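Single cells of 2 distal colon adenoma libraries were measured with 10x Genomics droplets. Per the submitters' processing notes the tools were Cell Ranger 2.1.1 and Seurat and the build mm10, and the labels state no filter on cells or doublets. The deposited values were natural log values of 1 plus UMIs per 10000 UMIs of the cell, as their sums show. With the log undone and divided by the smallest value of its cell, every value came out whole within 0.01, and UMIs were recovered in this way. The design had assumed counts, and the recovered UMIs were used as such. Cell types, epithelial subtypes and classes are the authors' deposited annotation.

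The genes and comparison lists were chosen with earlier results of these data known. UMIs were summed over the cells of a population, and a ratio has an exact conditional binomial 95% interval, a level an exact Poisson one, a share a Clopper-Pearson one. All cover counting error only. A gene was measured if 2% or more of the cells of both libraries together held a UMI of it, was called at 1.5-fold, and a side at 0 was set to 3 UMIs. Populations with at least 30 cells in each library were compared. Genes detected in 10% or more of Proliferating cells were named in full, which holds for all 40, and 3 genes each way of the other lists whose intervals left out 1. Scrublet (Scanpy 1.11.5) marked doublets, which were kept, except in an alternative. The calculations used Python 3.11.15, numpy 2.4.6, pandas 2.3.3, SciPy 1.17.1 and matplotlib 3.10.9, and were tested on simulated data. Alternatives covered the level, the filter on low values, doublets, depth, scaling, the subtype mix, the fold, the number of genes per cell and the promoter window. Leaving out the cell with most UMIs of these genes was added after seeing the data.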

Additional observations from a re-analysis of the deposited data

Results flagged for a closer look

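The summed level of the 40 genes went in opposite directions in different populations of the same libraries, and the difference between populations was not tested. The ratio of CIN_high to CIN_low was above 1 in myeloid cells (1.17), secretory cells (1.73) and B cells (3.79). It was below 1 in all epithelial cells together (0.702), Proliferating cells (0.849), Cancer_cell_1 (0.853), Stem_cell_1 (0.912), Complement+ stem cells (0.803), enterocytes (0.654), endothelial cells (0.724) and pericytes (0.791).

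Some of these ratios rest on 1 cell. Without the cell that held most of these UMIs in each library, the summed levels were 2.37 and 2.12 UMIs per 10000 in secretory cells, 2.72 and 2.13 in B cells, 2.87 and 2.77 in endothelial cells and 2.80 and 2.57 in pericytes. In myeloid cells they were 5.54 and 4.74, so the direction there was the same without them.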

How the results depend on the processing

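Of the 40 genes, all had a ratio under 1 over all epithelium in every alternative run that measured them, except the one with an equal subtype mix (38 of 40). In the thinned cells 32 were measured. Within Proliferating cells 29 to 36 of 40 lay under 1. The epithelial median log2 ratio ran from -0.59 to -0.25, the value with an equal subtype mix, and the Proliferating one from -0.25 to -0.20.

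Counts past the line moved more. The shares of all genes past it under these alternatives are not given here, so the counts have no background. Over all epithelium, 17 genes became 10 in thinned cells, 5 relative to the median of all genes, 0 with an equal mix and 0 at 2-fold. For the other mitotic genes, 17 lower became 10, 10, 3 and 2, and 1 higher became 2 relative to the median, 2 with an equal mix and 0 at 2-fold. For the replication genes, 8 lower became 5 relative to the median, 2 with an equal mix and 0 at 2-fold. Within Proliferating cells, 0 lower became 3 with the mean over cells and 6 in thinned cells, and 0 higher became 1 in thinned cells. In the other epithelium, 0 lower became 3 with the mean over cells, 1 with no filter and 1 in thinned cells, and 0 higher became 1 with no filter and 1 relative to the median. The endothelial median was -1.16 with no filter and with the filter in 1 library. Medians short of the line changed sign in some alternatives: those of endothelial cells (-0.25, from -1.16 to 0.34), p57+ cancer cells (-0.11, up to 0.52), T and NK cells (0.02, down to -0.10) and the other epithelium (-0.07, up to 0.01). The secretory median reversed to -0.15 in thinned cells and to -0.15 without the top cell of each library. The cause was not tested in these cases.

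The share of cells with several of the genes follows its definition. With cells thinned to 5000 UMIs it was 11.4% and 15.0% of epithelial, 92.6% and 93.4% of Proliferating and 3.46% and 4.27% of other epithelial cells. With at least 3 genes it was 13.9% and 16.9%, 92.8% and 92.5%, and 6.34% and 6.88%. With at least 10 genes it was 4.75% and 7.37%, 49.5% and 59.8%, and 0.434% and 0.401%. In the promoter window of 150 bases before to 50 after the start, the shares of the 40 genes were the same, and those of all genes fell to 12.8% for TTTGAA and 31.9% for CCAAT. Of 232 values from alternatives for the main comparisons, 187 stayed within the limits of the main value, 43 moved and 2 reversed, where a reversal was counted only for a main median past the 1.5-fold line, and of 826 for single genes 737 stayed and 89 moved.

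No paired analysis was possible because each class is 1 library and cells are not assigned to samples. Complement+ cells without doublets were not run, since most are called doublets. Depth limits the rarest genes outside Proliferating cells, where Espl1 rested on 11 and 33 UMIs and Ttk on 12 and 12.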
